A study of Mus musculus with 59 samples.

Results

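Neurons carrying the SOD1_G93A transgene were set against wild-type neurons, both grown in sandwich co-cultures on SOD1_G93A glia, and the RNA of the neurons was read. The members were all neuron libraries labelled for these 2 pairings, which came to 12 of the 59 samples in the series. There were 6 libraries of mutant neurons on mutant glia and 6 of wild-type neurons on mutant glia, each with replicates 1 and 2 at 3, 7 and 14 days of culture. The glia were mutant in both groups, so the labels of the groups differed only in the genotype of the neurons. A further 8 neuron libraries, 3 of mutant and 5 of wild-type neurons, had been grown on wild-type glia at the same days and shared no library with the 12. In the published study the neurons were differentiated from mouse embryonic stem cells and the glia were primary cells, but the labels give neither the origin of the cells nor the number of cell lines or animals behind a genotype. The genotype of the neurons and the line they came from cannot be told apart. Whether replicates 1 and 2 were separate cultures is not stated, so the p-values reflect no more than the scatter among these libraries, which may be technical.

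SOD1 encodes a superoxide dismutase, and the human G93A form is a dominant cause of amyotrophic lateral sclerosis, a disease in which spinal motor neurons die. In the spinal cord, motor neurons arise from ventral progenitors under the influence of Sonic hedgehog secreted by the floor plate, next to progenitors of inhibitory and excitatory interneurons. Glia carrying mutant SOD1 are known to harm motor neurons in culture, and setting mutant against wild-type neurons on one kind of glia asks what the transgene changes in the neurons themselves.

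The table held RPKM values, that is, reads scaled by transcript length and by the number of mapped reads. Whole reads on genes were recovered from them; in units of 1000000 reads they came to 7.73 to 22.3 in the libraries of mutant neurons (median 13.9) and to 6.32 to 28.9 in those of wild-type neurons (median 13.9). The 2 libraries of day 3 replicate 1 stood apart in scale, with rescaling factors of 1.60 for mutant and 1.69 for wild-type neurons against 0.839 to 0.961 and 0.820 to 0.955 for the others. Mouse Sod1 averaged 256 ± 113 RPKM in mutant neurons and 228 ± 141 RPKM in wild-type neurons (SD, n = 6 each) and did not pass the test (limma, adjusted p = 0.52); the human transgene was not measured here. Neuronal genes were far above their level in the 12 glia libraries of the same sandwiches, all rescaled together. Snap25, a protein of synaptic vesicle fusion, had a median of 73.9 RPKM in mutant and 101 RPKM in wild-type neurons against 1.04 RPKM in glia, and Mnx1, a motor neuron transcription factor, had 61.0 and 52.7 RPKM against 0.246 RPKM in glia. The neuron libraries also held RNA of other cells: the microglial gene C1qa had medians of 139 RPKM with mutant and 96.5 RPKM with wild-type neurons, against 464 RPKM in glia. In bulk RNA, fewer cells of a type and less RNA per cell cannot be told apart.

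Values below are RPKM after rescaling, and each change is a difference on the log2(RPKM + 1) scale, mutant minus wild type, with its standard error (SE), from 1 limma fit in which equal-numbered libraries of a day formed a pair. Calls are genes whose p, adjusted by Benjamini-Hochberg over all 14535 genes tested, was under 0.05. In mutant neurons 229 genes rose (1.58% of those tested) and 65 fell (0.447%), 294 in all (2.02%). The adjusted p of most calls lay just under the threshold: leaving out any 1 library, which also takes its partner out of the comparison, left 15 to 62 calls, and without the pairing of replicate numbers there were 10. Of the 48 called genes named by the rule given with the processing, 20 were called in none of these 12 fits. They were Atp1b2, Bmp7, Col5a1, Fignl1, Foxa2, Ifit1, Pax2, Psmd12, Rhbdl3, Rhox6, Rsph9, Sez6, Shh, Spon2, Sulf1, Tap1, Tex19.1, Tgm2, Zim1 and Zrsr1. Nxf3, Trap1a, Cyct, Capn11, Rec8 and Wdfy1 were called in all 12. None of the 48 changed sign in any of the 12 fits.

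Most of the genes that rose lay on chromosome 11. Of the 1096 genes tested there, 162 rose (14.8%) and 2 fell (0.182%), and 93.3% had a positive difference. Of the 12095 genes of the other chromosomes, 42 rose (0.347%) and 59 fell (0.488%), and 40.2% had a positive difference. Of the 1344 entries with no matched chromosome, 25 rose (1.86%) and 4 fell (0.298%). The median difference of chromosome 11 genes was 0.34, against -0.05 to -0.01 for the medians of the 19 other chromosomes. It was positive in every pair, at 0.38 and 0.22 at day 3, 0.29 and 0.41 at day 7 and 0.33 and 0.32 at day 14. For the genes at 5 RPKM or more in both groups, the median ratio of mutant to wild-type neurons was 1.30 on chromosome 11, or 1.36 times that of the other chromosomes. The median of chromosome 11 stayed between 0.28 and 0.39 under every alternative tried, while the number called did not: it was 286 with scaling factors taken from the other chromosomes, 3 without the pairing, and 0 without day 7.

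**Figure D1:**
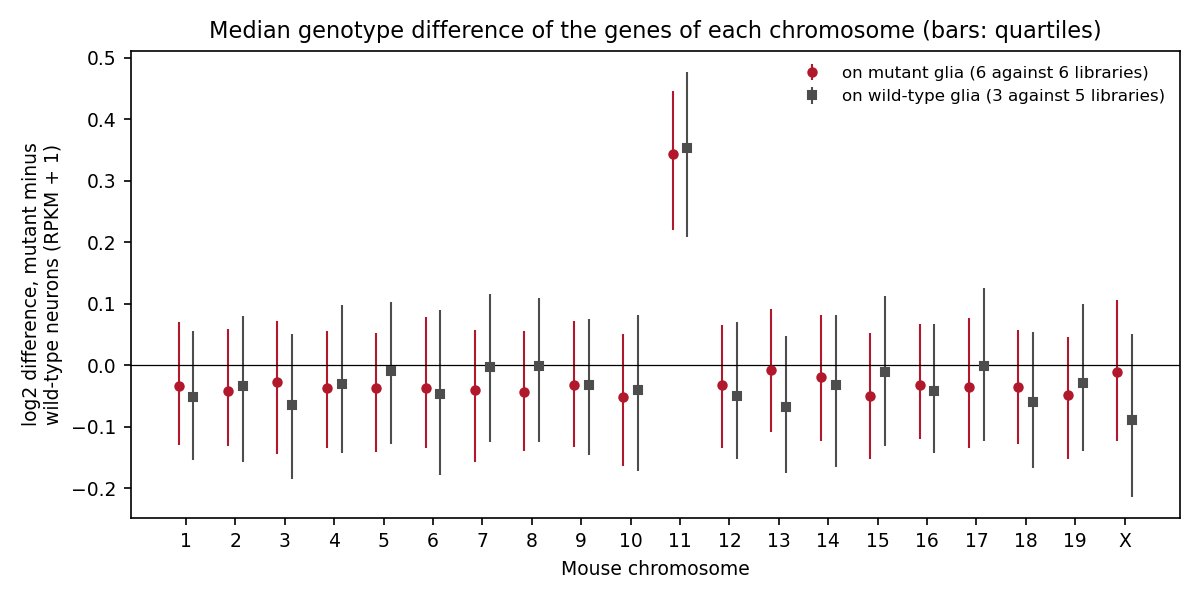
Median log2 difference between mutant and wild-type neurons over the genes of each chromosome, with bars from the first to the last quartile, on mutant glia (circles) and on wild-type glia (squares). Chromosome 11 stands at 0.34 on mutant glia and 0.35 on wild-type glia, and the other chromosomes lie close to 0.

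The shift ran along the whole chromosome. When the genes were taken in order and cut into 10 bins, the median difference was 0.30 to 0.38 in each bin, and a running median over 51 genes stayed between 0.22 and 0.42. Chromosome 11 genes took 11.1 to 12.3% of the summed RPKM of genes with a known chromosome in the 6 libraries of mutant neurons and 8.77 to 9.07% in the 6 of wild-type neurons, with no overlap. The glia of the same sandwiches did not show it: between glia grown with mutant and with wild-type neurons the median difference was -0.0019 for chromosome 11 genes and 0.0047 for the rest.

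**Figure D2:**
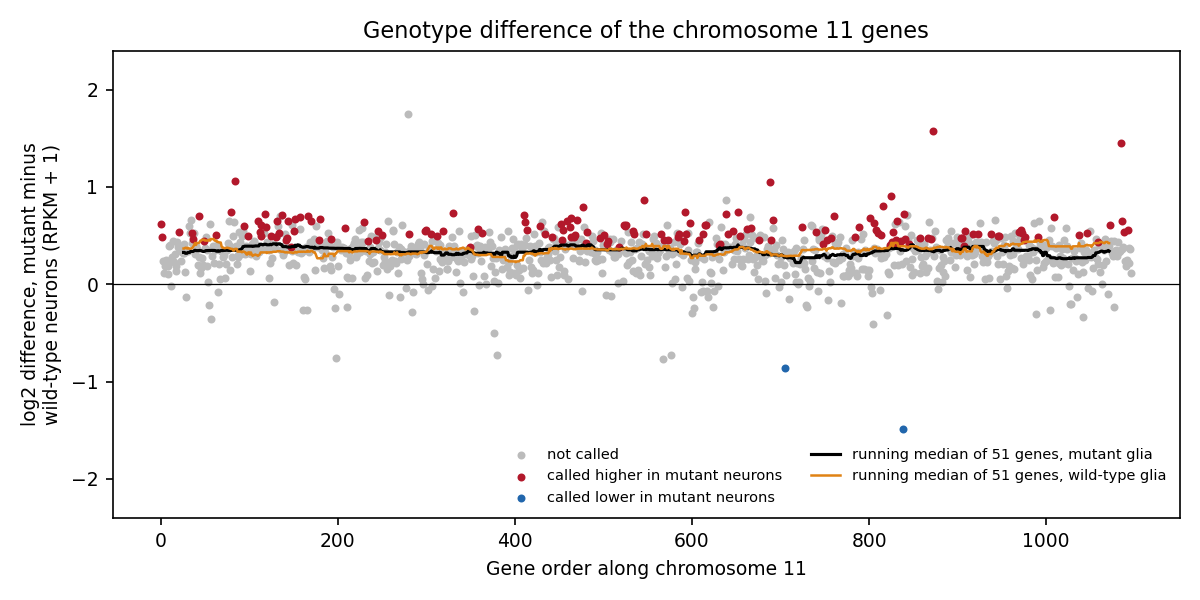
Log2 difference between mutant and wild-type neurons of each chromosome 11 gene, in the order of the genes along the chromosome, with called genes in red (higher) and blue (lower) and running medians over 51 genes on both kinds of glia. Both running medians stay above 0 from one end to the other.

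Among called chromosome 11 genes that averaged 5 RPKM or more in mutant neurons and were higher in all 6 pairs, the 8 largest rises were of 0.73 to 0.91. Psmc3ip, a cofactor of homologous recombination, rose by 0.91 (SE 0.15, adjusted p = 0.029), with 3.74 to 18.8 RPKM in mutant neurons and 1.99 to 9.53 RPKM in wild-type neurons. Sez6, a neuronal membrane protein, rose by 0.86 (SE 0.17, adjusted p = 0.041). Ghdc rose by 0.80, the ATPase gene Fignl1 by 0.74, the mitochondrial peptidyl-tRNA hydrolase gene Ptrh2 by 0.74, and Rhbdl3, Dhrs7b and Znhit3 by 0.74, 0.73 and 0.73. The groups of these 8 overlapped across days. Of all genes tested, 6.36% were higher in mutant neurons in all 6 pairs and 4.75% lower in all 6; being higher in all 6 was a condition for naming the 8. Psmd12, a lid subunit of the proteasome, showed the shift with little spread. It had 64.4 to 83.1 RPKM in mutant neurons (median 75.5) and 39.1 to 60.9 RPKM in wild-type neurons (median 52.1), so every mutant library was above every wild-type one; over all genes tested, 0.385% were separated in this way with mutant neurons higher and 0.0894% with mutant neurons lower. It rose by 0.51 (SE 0.09, adjusted p = 0.036) and was the 1 called gene among 15 of the proteasome and autophagy list, 5 of which lie on chromosome 11.

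Against this shift, 2 chromosome 11 genes fell, and Aoc3 was named for that reason, after its values were seen. Aoc3, which encodes a cell-surface amine oxidase, had 0.0457 to 0.685 RPKM in mutant neurons and 1.94 to 2.69 RPKM in wild-type neurons, without overlap, a fall of 1.49 (SE 0.13, adjusted p = 0.0018). It was also lower by 1.32 on wild-type glia (SE 0.15, adjusted p = 0.00074). Col1a1, the fibrillar collagen chain, had 4.09 to 47.9 RPKM in mutant neurons (median 21.7) and 8.60 to 78.3 RPKM in wild-type neurons (median 41.1) and fell by 0.86 (SE 0.16, adjusted p = 0.038), with 5 of 6 pairs lower.

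The 3 largest rises of called genes off chromosome 11 were in Nxf3, Trap1a and Cyct, genes known mainly from germ cells, testis or placenta. Nxf3, a member of the nuclear RNA export factor family on chromosome X (mm9, 132606638 to 132619795), had 2.18 to 8.99 RPKM in mutant neurons (median 5.02) and 0 to 0.126 RPKM in wild-type neurons (median 0.0306). Mutant neurons thus held the transcript at every day, and wild-type neurons were at or next to 0. The difference was 2.46 (SE 0.23, adjusted p = 0.0029), a value that depends on the pseudocount because the wild-type level was so low. Cyct, the testis form of cytochrome c on chromosome 2 (76191999 to 76198508), had 1.94 to 12.4 RPKM in mutant neurons (median 5.49) and 0 to 2.15 RPKM in wild-type neurons (median 0.298). It rose by 2.10 (SE 0.13, adjusted p = 0.00019), and only the wild-type library of day 3 replicate 1 reached the lowest mutant value.

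Trap1a, which encodes the tumour rejection antigen P1A and is otherwise seen in placenta and male germ cells, followed the same pattern. It had 5.35 to 25.9 RPKM in mutant neurons (median 13.2) and 0.418 to 15.2 RPKM in wild-type neurons (median 1.38). The wild-type library of day 3 replicate 1 held the 15.2 RPKM and the other 5 held 2.90 RPKM or less. The rise was 2.20 (SE 0.23, adjusted p = 0.0047). Rec8, a cohesin subunit of meiosis, had 18.1 to 24.9 RPKM in mutant neurons (median 21.7) and 7.27 to 12.0 RPKM in wild-type neurons (median 9.03). The groups did not overlap at any day, and the rise was 1.14 (SE 0.11, adjusted p = 0.0042). Capn11, a calpain protease of testis, had 2.80 to 6.72 RPKM in mutant neurons (median 5.24) and 1.19 to 2.13 RPKM in wild-type neurons (median 1.70). It too was separated in all libraries and rose by 1.16 (SE 0.12, adjusted p = 0.0047).

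The sequences before the starts of 4 of these genes are shown because these genes were called whichever library was left out; the RefSeq promoter table (GRCm38.p6) held no entry for Nxf3 or Wdfy1. Each line gives the 250 bases before the start, 5′ to 3′ on the strand of the gene, and capitals mark CG dinucleotides, the sites of DNA methylation. They lie at chr14:55617916-55618165 (+, Rec8), chr2:76360454-76360703 (-, Cyct), chrX:139333433-139333682 (+, Trap1a) and chr17:45659310-45659559 (-, Capn11).
Rec8: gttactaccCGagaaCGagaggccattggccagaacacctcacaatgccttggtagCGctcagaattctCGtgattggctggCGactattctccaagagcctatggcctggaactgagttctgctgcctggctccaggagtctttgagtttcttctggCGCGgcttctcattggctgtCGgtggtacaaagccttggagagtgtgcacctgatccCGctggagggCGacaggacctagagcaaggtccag
Cyct: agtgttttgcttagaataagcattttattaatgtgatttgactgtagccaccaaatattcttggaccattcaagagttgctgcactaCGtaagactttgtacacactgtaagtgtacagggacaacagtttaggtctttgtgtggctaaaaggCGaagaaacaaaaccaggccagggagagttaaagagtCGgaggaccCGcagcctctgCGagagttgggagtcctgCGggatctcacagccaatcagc
Trap1a: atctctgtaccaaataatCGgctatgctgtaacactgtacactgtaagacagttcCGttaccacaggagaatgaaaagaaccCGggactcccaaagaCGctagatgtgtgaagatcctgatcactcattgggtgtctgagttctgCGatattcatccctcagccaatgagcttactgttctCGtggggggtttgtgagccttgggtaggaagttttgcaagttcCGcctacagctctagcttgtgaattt
Capn11: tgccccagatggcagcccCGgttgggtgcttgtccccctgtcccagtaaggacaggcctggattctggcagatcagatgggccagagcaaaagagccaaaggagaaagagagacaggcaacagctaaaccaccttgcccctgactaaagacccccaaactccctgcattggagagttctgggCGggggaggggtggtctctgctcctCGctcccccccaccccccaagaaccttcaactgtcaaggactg
They held 10 (Rec8), 6 (Cyct), 7 (Trap1a) and 3 (Capn11) CG dinucleotides. Over all 32851 promoters of the table the median was 6, with quartiles of 2 and 16, and 92.1% held at least 1. All 4 counts lie within these quartiles.

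**Figure D3:**
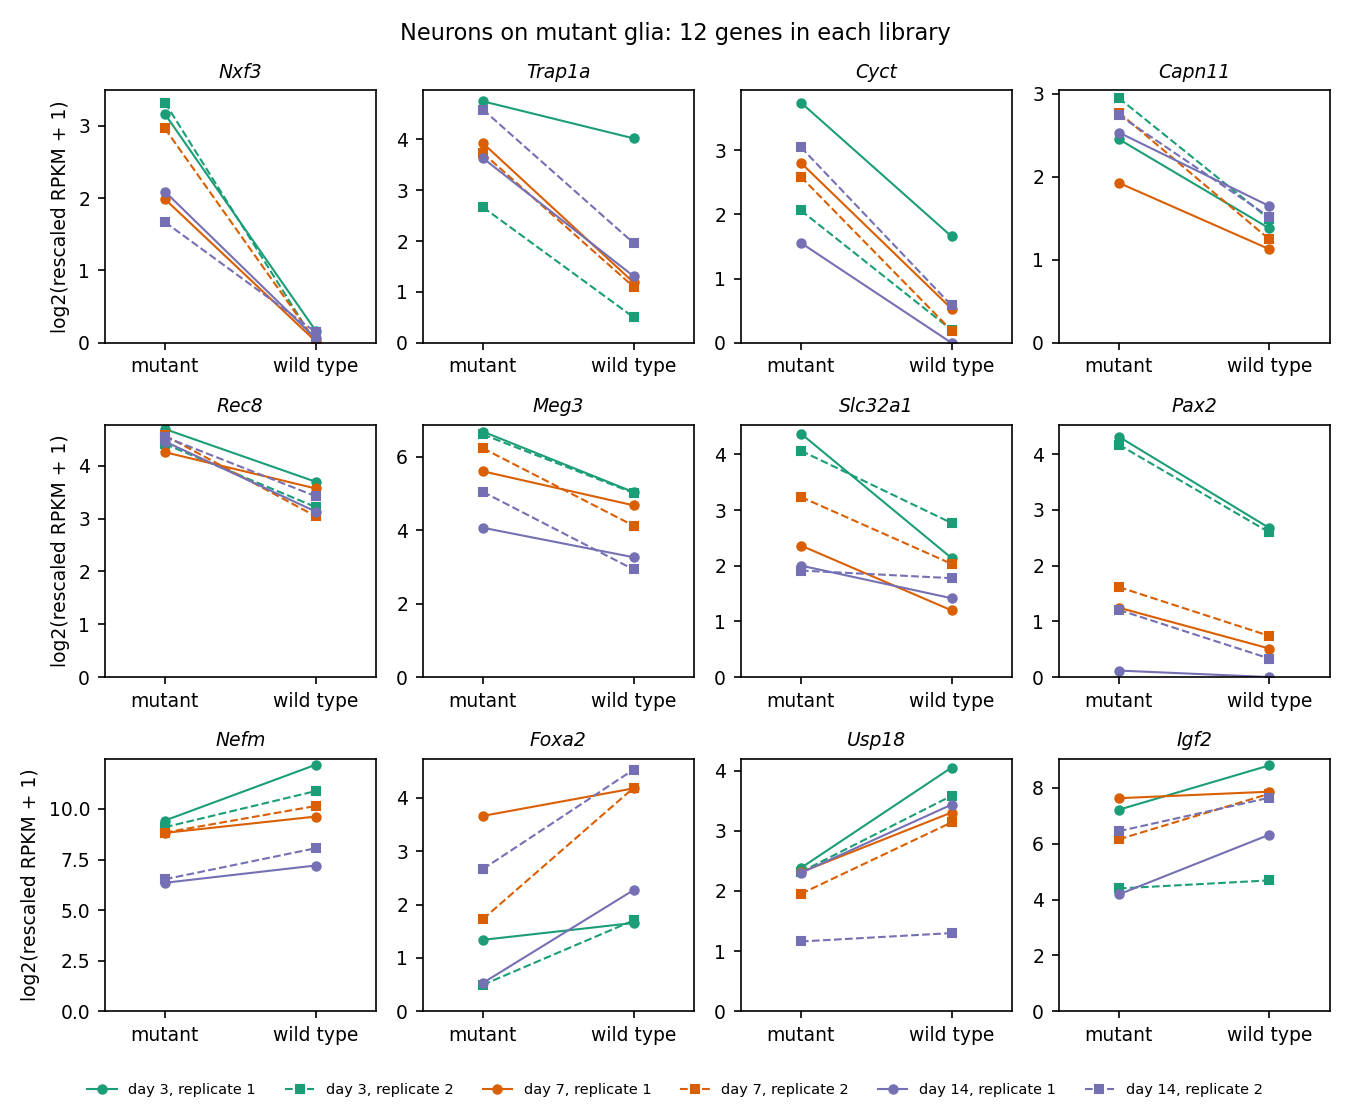
Level of 12 genes, as log2(rescaled RPKM + 1), in each of the 12 libraries, with mutant neurons on the left and wild-type neurons on the right of each panel and a line joining each pair of libraries. The mutant library lies above its wild-type partner in all 6 pairs for Nxf3, Trap1a, Cyct, Capn11, Rec8, Meg3, Slc32a1 and Pax2 and below it in all 6 for Nefm, Foxa2, Usp18 and Igf2.

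Of the 27 genes of the germline list, 8 reached the filter on low values, and 2 of these rose and none fell. Over all genes tested, 1.58% rose and 0.447% fell. Rhox6, an X-linked homeobox gene of placenta and germ cells, had 0.138 to 14.2 RPKM in mutant neurons (median 8.47) and 0 to 6.38 RPKM in wild-type neurons (median 1.04) and rose by 1.66 (SE 0.33, adjusted p = 0.041). Tex19.1, a germline repressor of retrotransposons on chromosome 11, rose by 1.45 (SE 0.30, adjusted p = 0.043). The neighbouring Rhox9 had a difference of 1.49 and an adjusted p of 0.056. Rhox6 and Rhox9 are close paralogs, and how reads that match several copies were counted is not stated in the labels, so their values may share reads; the same holds for Dppa5a and Pou5f1, which have pseudogenes. Members could pass the filter through the mutant libraries alone, so the 8 are not the whole list; the other members matched in the table stayed under 1 RPKM in all but at most 1 library.

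At day 7 taken alone, genes of pluripotency rose as well. In the fit with a genotype term for each day, 7 of 17 pluripotency genes tested rose at day 7 and none at days 3 or 14; over all genes, 34 rose at day 7 (0.234%), 3 at day 3 (0.0206%) and 10 at day 14 (0.0688%). Pou5f1, the core transcription factor of embryonic stem cells, had 5.40 and 4.09 RPKM in mutant neurons at day 7, against 0.216 and 0 RPKM in wild-type neurons. At day 3, replicate 1 held 18.1 RPKM in mutant and 10.01 RPKM in wild-type neurons, while replicate 2 held 0.621 and 0.365 RPKM, and at day 14 no library exceeded 0.496 RPKM. Thus both genotypes carried the transcript in 1 pair at day 3, and at day 7 both mutant libraries stood above both wild-type ones. The rise at day 7 was 2.37 (SE 0.20, adjusted p = 0.0029).

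Dppa5a, an RNA-binding protein of embryonic stem cells, had 27.4 and 9.47 RPKM in mutant neurons at day 7, against 0.818 and 0 RPKM in wild-type neurons, a rise of 3.68 (SE 0.28, adjusted p = 0.0018). At day 3 it had 109 and 0.873 RPKM in mutant neurons and 91.2 and 0.995 RPKM in wild-type neurons. Utf1, L1td1, Tdgf1, Lin28a and Nanog rose at day 7 by 2.57, 2.13, 1.66, 1.5 and 1.49. Sox2, which neural progenitors also express, had a difference of 0.35 (adjusted p = 0.83). Among the 8 germline genes tested, Rhox6, Rhox9, Tex19.1 and Stra8, which drives entry into meiosis, rose at day 7 by 2.85, 2.74, 2.71 and 1.93. The change in the genotype effect between days was itself tested: by limma no gene passed for day 7 minus day 3 (1042 at an unadjusted p under 0.05, 7.17%) or for day 14 minus day 3 (863, 5.94%), and Dppa5a and Rhox9 came nearest among these lists, both with an adjusted p of 0.059 for day 7 minus day 3. With each day resting on 2 pairs, the 57 calls at day 7 (34 higher and 23 lower) became 23 on the values as deposited, of which 19 were higher and 4 lower, and 0 without the pairing. On the values as deposited, Dppa5a, L1td1 and Pou5f1 of the pluripotency list and the same 4 germline genes were called at day 7.

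Of 25 imprinted genes tested, 2 rose and 2 fell, against 1.58% and 0.447% of all genes tested. Meg3, the maternally expressed long noncoding RNA of the Dlk1 cluster on chromosome 12 (mm9, 110779211 to 110809937), had 15.7 to 102 RPKM in mutant neurons (median 60.8) and 6.62 to 31.8 RPKM in wild-type neurons (median 20.5). Levels declined with days in both genotypes, and at each day both mutant libraries were above both wild-type ones; the rise was 1.53 (SE 0.18, adjusted p = 0.0076). Dlk1, the paternally expressed gene of that cluster, had a difference of -0.54 (adjusted p = 0.16). Igf2, a growth factor expressed from the paternal allele, had 17.2 to 197 RPKM in mutant neurons (median 78.3) and 24.7 to 446 RPKM in wild-type neurons (median 210). It was lower in mutant neurons in all 6 pairs and fell by 1.18 (SE 0.24, adjusted p = 0.042), while its neighbour H19 had a difference of 0.36 (adjusted p = 0.40). Zim1, an imprinted zinc finger gene, fell by 0.98 (SE 0.15, adjusted p = 0.029), and Zrsr1, on chromosome 11, rose by 0.60 (SE 0.11, adjusted p = 0.036).

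Among 8 genes whose levels are known to differ between inbred strains, 2 were called, against 2.02% of all genes tested. Wdfy1, which encodes an endosomal protein, had 6.37 to 9.14 RPKM in mutant neurons (median 7.44) and 2.93 to 3.98 RPKM in wild-type neurons (median 3.22). No library of one genotype reached the other, and the rise was 0.99 (SE 0.10, adjusted p = 0.0047). Ide, the insulin-degrading enzyme, fell by 0.67 (SE 0.09, adjusted p = 0.020) and was lower in all 6 pairs. The strains behind the neurons are not given in the labels, and the part of strain in these differences was not tested.

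Genes of spinal interneurons had higher values in mutant neurons, while no motor neuron gene was called. In the list of spinal interneurons and other neurons, all 12 genes tested had a positive difference (11 under quantile normalization). Of these, 2 rose. Among all genes tested, 6608 of 14535 had a positive difference and 1.58% rose. The list's median was 0.45, against a median of -0.02 over all genes. Taken by day, it was 0.84 at day 3, 0.39 at day 7 and 0.08 at day 14. Pax2, a transcription factor of inhibitory interneurons, had 0.0841 to 18.9 RPKM in mutant neurons (median 1.72) and 0 to 5.37 RPKM in wild-type neurons (median 0.546). At day 3 it stood at 18.9 and 17.0 RPKM in mutant neurons, against 5.37 and 5.04 RPKM in wild-type neurons, and by day 14 it was at or under 1.31 RPKM in both. It rose by 0.97 (SE 0.19, adjusted p = 0.039). Slc32a1, the vesicular transporter of GABA and glycine, had 2.77 to 19.7 RPKM in mutant neurons (median 6.28) and 1.30 to 5.81 RPKM in wild-type neurons (median 2.76) and rose by 1.10 (SE 0.22, adjusted p = 0.041).

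En1, Lhx1 (on chromosome 11) and Slc6a5, the glycine transporter gene, were higher in mutant neurons in all 6 pairs, with limma adjusted p of 0.09, 0.068 and 0.079. Gad1, which makes GABA, had a difference of 0.01 and Gad2 one of 0.56 (adjusted p = 0.99 and 0.073). None of the 17 motor neuron genes was called, 2 had a positive difference, and the median was -0.17. That median was -0.63 at day 3, -0.0093 at day 7 and 0.07 at day 14, with 1, 8 and 10 genes positive. Mnx1 averaged 52.3 ± 40.7 RPKM in mutant and 79.2 ± 81.2 RPKM in wild-type neurons (SD, n = 6 each), with a difference of -0.33 (SE 0.18, adjusted p = 0.39), and Chat, the enzyme of acetylcholine synthesis, had one of -0.23 (adjusted p = 0.62). No member was called among 14 pan-neuronal or 19 synapse genes tested.

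Further genes off chromosome 11 rose. Lamp5, a lysosome-associated membrane protein of neurons, had 1.08 to 52.2 RPKM in mutant neurons (median 7.32) and 0.411 to 19.8 RPKM in wild-type neurons (median 2.69). Its level fell with days in both genotypes and was higher in the mutant library of every pair; the rise was 1.08 (SE 0.13, adjusted p = 0.0076). Vsnl1, a neuronal calcium sensor, rose by 0.86 (SE 0.11, adjusted p = 0.015). Rsph9, a radial spoke component of motile cilia, rose by 0.82 (SE 0.15, adjusted p = 0.038), and Thrsp, a regulator of lipid synthesis, by 1.00 (SE 0.14, adjusted p = 0.022).

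Among called genes with a symbol, the largest fall was in Nefm, the medium neurofilament subunit of axons. It had 688 and 547 RPKM at day 3, 450 and 456 RPKM at day 7 and 80.7 and 91.1 RPKM at day 14 in mutant neurons, against 4648 and 1887 RPKM, 787 and 1131 RPKM, and 147 and 266 RPKM at the same days in wild-type neurons. It declined with time in both genotypes and was lower in mutant neurons in all 6 pairs, by 1.51 (SE 0.24, adjusted p = 0.029). Nefl and Nefh were not lower. Nefl, the light subunit, averaged 1648 ± 1028 RPKM in mutant neurons and 1079 ± 689 RPKM in wild-type neurons (SD, n = 6 each), and Nefh, the heavy subunit on chromosome 11, had a difference of 0.53; neither was called (adjusted p = 0.09 and 0.20). In the deposited gene table the interval of Nefm (chr14:68700647-68742904, mm9) contains that of Nefl (chr14:68701920-68707153), and no source used here says how reads in the shared stretch were counted, so the 2 values may share reads. Nefm was the 1 called gene of 12 in the neurofilament and axon transport list.

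Foxa2, Shh and Nkx2-2, known from the floor plate and the progenitors beside it, fell. Foxa2, a transcription factor of the floor plate, had 0.410 to 11.6 RPKM in mutant neurons (median 1.92) and 2.15 to 22.0 RPKM in wild-type neurons (median 10.5). The pair of day 3 replicate 1 held 1.53 RPKM in mutant and 2.15 RPKM in wild-type neurons, and the other 5 pairs were further apart in RPKM; the fall was 1.35 (SE 0.25, adjusted p = 0.038). Shh, the hedgehog ligand made by the floor plate, had 3.62 to 39.0 RPKM in mutant neurons (median 11.6) and 9.43 to 62.0 RPKM in wild-type neurons (median 37.3) and fell by 1.11 (SE 0.22, adjusted p = 0.040). Nkx2-2, a transcription factor of the most ventral neural progenitors, fell by 1.19 (SE 0.22, adjusted p = 0.038), with 0.260 to 8.40 RPKM in mutant neurons (median 1.505) and 2.33 to 13.9 RPKM in wild-type neurons (median 7.64). In the 12 glia libraries of these sandwiches Foxa2 was at 0.0742 RPKM or less, while Shh had 2.11 to 11.4 RPKM (median 4.87) and Nkx2-2 had 0.677 to 4.31 RPKM (median 2.67); the part of carried-over glia in their values was not tested.

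Of the hedgehog and retinoic acid list, Shh was the only called member of 15, the receptor gene Ptch1 had a difference of -0.24 (adjusted p = 0.48), and Gli1 did not pass the filter. The retinoic acid binding proteins Crabp1 and Crabp2 had differences of -1.20 and -0.91 (adjusted p = 0.099 and 0.13). Nkx2-2 was the 1 called gene of 15 neural progenitor genes; the list's median was 0.03 and its members went both ways, with Pax6, a marker of more dorsal progenitors, at 0.71 and Olig2, of motor neuron progenitors, at 0.63 (adjusted p = 0.095 and 0.18). Of the axon guidance list, 0 of 23 genes were called over all days. Its summed level was 296 to 411 RPKM in mutant neurons and 418 to 501 RPKM in wild-type neurons, and Ntn1, a guidance cue of the floor plate encoded on chromosome 11, made up much of it, at 85.3 RPKM in mutant and 142 RPKM in wild-type neurons on average (difference -0.73, adjusted p = 0.26).

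Interferon-stimulated genes had lower values in mutant neurons. All 12 listed genes had a negative difference, with a median of -0.56, and 3 of them fell. Among all genes tested, 6608 of 14535 had a positive difference and 0.447% fell. Usp18, which shuts down interferon receptor signalling, had 1.23 to 4.21 RPKM in mutant neurons (median 3.94) and 1.46 to 15.6 RPKM in wild-type neurons (median 9.34). In 5 pairs the mutant value was under 5 RPKM and the wild-type one over 7 RPKM, while in the pair of day 14 replicate 2 both were under 2 RPKM; the fall was 1.06 (SE 0.17, adjusted p = 0.029). Oasl2, an oligoadenylate synthetase-like protein, had 3.69 to 9.50 RPKM in mutant neurons (median 7.58) and 4.14 to 36.7 RPKM in wild-type neurons (median 15.5) and fell by 0.95 (SE 0.18, adjusted p = 0.040). Ifit1, an antiviral RNA-binding protein, had 0.667 to 3.48 RPKM in mutant neurons (median 1.70) and 1.17 to 7.45 RPKM in wild-type neurons (median 5.24) and fell by 1.03 (SE 0.21, adjusted p = 0.042).

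Isg15 and Stat2 had differences of -0.90 and -0.38 (adjusted p = 0.07 and 0.086). Of 10 antigen presentation genes, Tap1, a subunit of the peptide transporter, fell by 0.57 (SE 0.10, adjusted p = 0.037). Microglia, which also express these genes, were present in the libraries. Their 14 listed markers summed to 143 to 1231 RPKM with mutant neurons (median 705) and to 225 to 1350 RPKM with wild-type neurons (median 441). Pair by pair, the sum was higher with mutant neurons in only 2 of 6, and none of 13 markers tested was called. The median difference of these markers was -0.41, 0.01 and 0.57 at days 3, 7 and 14. That of the interferon list was -0.87, -0.39 and -0.35. The part of microglia in the interferon values was not tested. The 250 bases before the start of Ifit1 (chr19:34640639-34640888, +, RefSeq, GRCm38.p6) are shown because they carry the interferon-stimulated response element, searched as GAAA, any 2 bases and GAAA again on either strand, with its matches in capitals.
Ifit1: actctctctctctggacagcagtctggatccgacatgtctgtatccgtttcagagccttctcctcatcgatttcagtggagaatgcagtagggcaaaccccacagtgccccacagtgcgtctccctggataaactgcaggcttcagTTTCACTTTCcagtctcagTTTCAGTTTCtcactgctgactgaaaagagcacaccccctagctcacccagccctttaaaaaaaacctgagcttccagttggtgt
It held 2 matches, read on the other strand, whose first bases lie 104 and 85 bases before the start. Of all 32851 promoters, 2.98% held a match within this window, and those of Oasl2 and Tap1 held none. Usp18 had no entry among these promoters and was not searched.

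Collagen genes had lower values in mutant neurons. In the collagen list 13 of 14 genes tested had a negative difference, with a median of -0.41, and Col1a1 and Col5a1 fell. Among all genes tested, 6608 of 14535 had a positive difference and 0.447% fell. Col5a1 had 1.13 to 24.4 RPKM in mutant neurons (median 11.8) and 2.01 to 41.5 RPKM in wild-type neurons (median 24.9) and was lower in all 6 pairs, by 0.84 (SE 0.17, adjusted p = 0.041). All 15 genes of the TGF-beta and BMP list were negative (14 with scaling from the other chromosomes), with a median of -0.22, and Bmp7, a bone morphogenetic protein, fell by 0.74 (SE 0.16, adjusted p = 0.049). Bmp4 had a difference of -1.01 (adjusted p = 0.094). Among the 11 fibroblast and meningeal genes tested, Col1a1 was the 1 called; their summed level was 21.7 to 256 RPKM with mutant neurons (median 179) and 31.8 to 298 RPKM with wild-type neurons (median 233), lower in mutant neurons in 5 of 6 pairs. That list shares 4 genes with the collagen list. Its other 7 tested members summed to 12.3 to 164 RPKM with mutant neurons (median 131) and 15.9 to 175 RPKM with wild-type neurons (median 151), lower with mutant neurons in all 6 pairs; 5 of the 7 had a negative difference, among them Dcn at -1.12 (adjusted p = 0.071), while Thy1 and Pdgfra had 0.07 and 0.26 (adjusted p = 0.88 and 0.65). In the 12 glia libraries of these sandwiches, Col1a1 had 114 to 681 RPKM (median 255) and Col3a1 had 78.9 to 226 RPKM (median 136). On that scale the medians with mutant and wild-type neurons were 21.8 and 41.0 RPKM for Col1a1. They were 4.59 and 4.71 RPKM for Col3a1. The part of fibroblasts and of carried-over glia in the result was not tested.

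Mvp and 6 further genes off chromosome 11 fell. Mvp, the main protein of vault particles, had 3.60 to 15.9 RPKM in mutant neurons (median 7.47) and 12.7 to 28.9 RPKM in wild-type neurons (median 20.5) and fell by 1.29 (SE 0.23, adjusted p = 0.037). At day 7 the mutant values were 10.2 and 15.9 RPKM and the wild-type values 12.7 and 28.9 RPKM. Spon2 and Ecm1, secreted matrix proteins, fell by 1.17 (SE 0.25, adjusted p = 0.045) and 0.92 (SE 0.18, adjusted p = 0.038). Sulf1, which trims sulphate from heparan chains, fell by 1.08 (SE 0.22, adjusted p = 0.043), and Tgm2, which crosslinks proteins, by 0.91 (SE 0.16, adjusted p = 0.037). Ankrd1, an ankyrin repeat protein, fell by 1.14 (SE 0.19, adjusted p = 0.034), and Cdkn2b, an inhibitor of the cell cycle, by 0.92 (SE 0.17, adjusted p = 0.038). All 7 were lower in mutant neurons in all 6 pairs, with overlap between days.

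Genes of astrocytes had higher values with mutant neurons. Gfap, the astrocyte intermediate filament, which lies on chromosome 11, had 1.85 to 138 RPKM with mutant neurons (median 16.4) and 2.07 to 24.7 RPKM with wild-type neurons (median 4.03). At day 14 it stood at 138 and 64.5 RPKM with mutant neurons, against 24.7 and 17.3 RPKM with wild-type neurons, and only in the pair of day 3 replicate 2 was it lower, at 1.85 against 2.07 RPKM. It rose by 1.57 (SE 0.27, adjusted p = 0.034). Atp1b2, an astrocytic sodium pump subunit also on chromosome 11, rose by 0.71 (SE 0.14, adjusted p = 0.041).

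Gfap and Atp1b2 were the called members of the astrocyte list. Over the list, 12 of 13 genes tested had a positive difference, with a median of 0.38, or 0.21 for the 9 members off chromosome 11. Among all genes tested, 6608 of 14535 had a positive difference and 1.58% rose. Unlike Gfap, the list as a whole differed little at day 14: its median was 0.60, 0.45 and 0.08 at days 3, 7 and 14. Aldh1l1 had a difference of 1.08 (adjusted p = 0.076), while Aqp4 and Gja1 had 0.03 and -0.20. The summed level of the list was 112 to 1156 RPKM with mutant neurons (median 395) and 121 to 916 RPKM with wild-type neurons (median 220), higher with mutant neurons in 5 of 6 pairs. Gfap had a median of 201 RPKM in the glia libraries of the same sandwiches, and the part of carried-over glia in these values was not tested. No member of the oligodendrocyte (13 tested), endothelial and mural (6), muscle (5) or endoderm and epithelium (9) lists was called over all days; at day 7 alone, Actc1, the cardiac actin gene of the muscle list, was lower, at -1.75 (SE 0.27, adjusted p = 0.046, or 0.091 on the values as deposited). Acta2, the smooth muscle actin gene, made up nearly all of the summed endothelial and mural markers and was lower with mutant neurons in all 6 pairs, at 9.51 to 1010 RPKM (median 366) against 20.4 to 1177 RPKM with wild-type neurons (median 929; difference -0.98, adjusted p = 0.076). The other 5 tested members summed to 1.77 to 22.7 RPKM with mutant and 1.77 to 19.8 RPKM with wild-type neurons, and the endothelial genes Pecam1 and Cdh5 had positive differences, of 0.49 and 0.53 (adjusted p = 0.12 and 0.22).

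**Figure D4:**
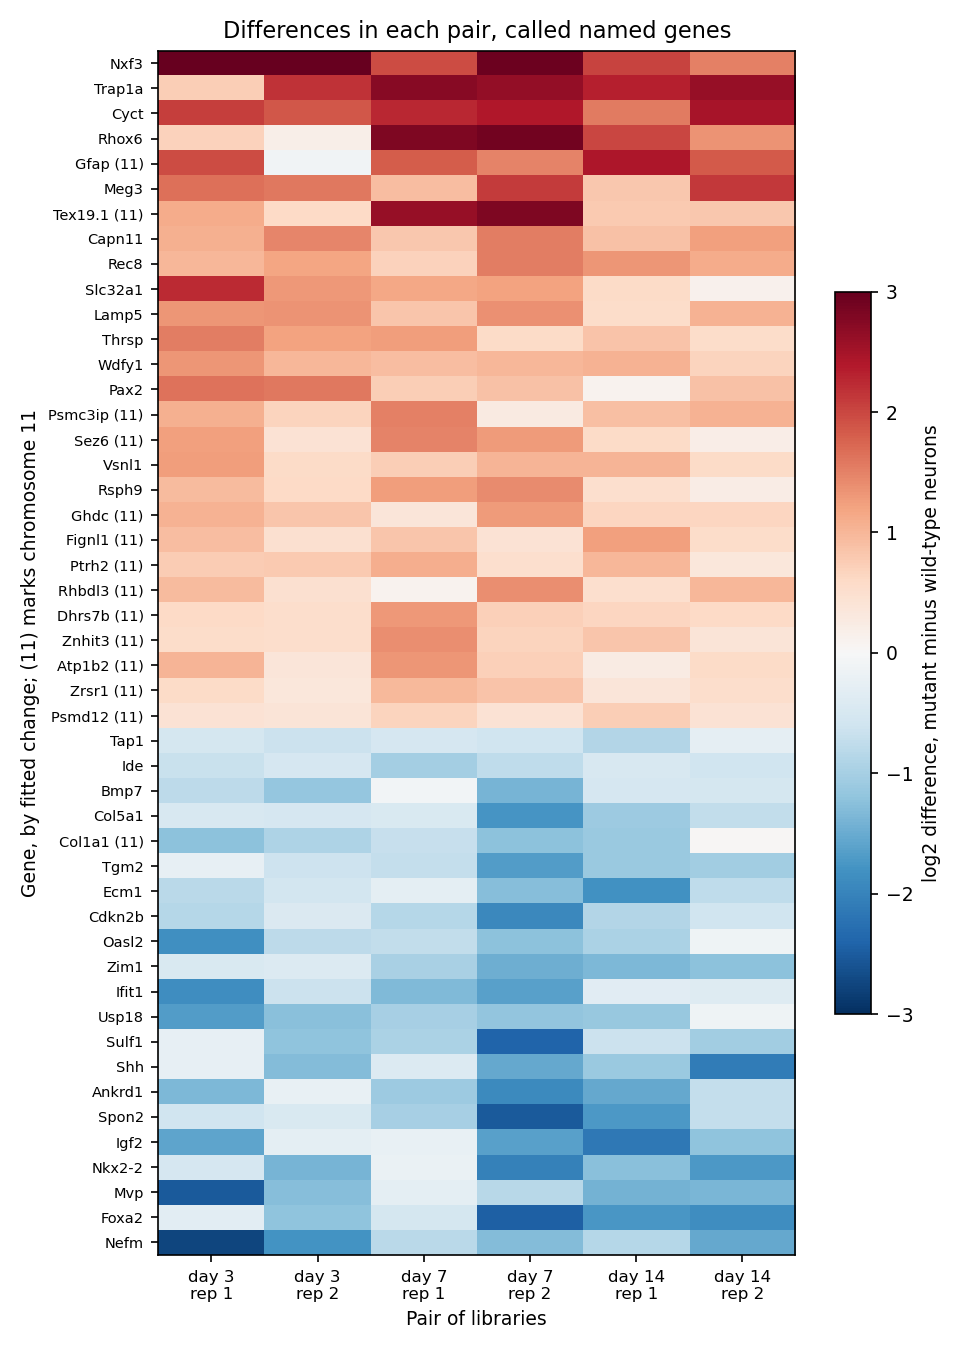
Log2 difference between mutant and wild-type neurons in each of the 6 pairs of libraries (columns) for the 48 called genes named by rule (rows, ordered by fitted change), in red where mutant neurons were higher and blue where they were lower, with colours saturating at 3. Differences keep their sign in all 6 pairs except for Gfap at day 3 replicate 2 and Col1a1 at day 14 replicate 2.

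Lists tied to disease in SOD1 mutants held few or no calls. None of 20 ALS genes, 15 genes of the unfolded protein response, 12 heat shock genes, 15 genes of oxidative stress, 14 of p53 and apoptosis, 13 of axon injury or 16 of oxidative phosphorylation was called. Of the unfolded protein response, 13 of 15 genes (12 with scaling from the other chromosomes) had a negative difference, with a median of -0.29, and Atf4, its transcription factor, had -0.37 (adjusted p = 0.055). None of 24 Hox genes tested was called over all days. Of these, 7 had a positive difference (8 under quantile normalization or with scaling from the other chromosomes). The median was -0.25, or -0.37 for the 14 off chromosome 11, each of which had a negative difference. Among all genes tested off chromosome 11, 40.2% had a positive difference. Over all 24 the median was 0.01, -0.06 and -0.53 at days 3, 7 and 14. Voltage-gated channels (22), glutamate receptors (15) and GABA, glycine and acetylcholine receptors (17) held no call either, and 16 of the 17 inhibitory and acetylcholine receptor genes (15 under quantile normalization) were positive, with a median of 0.21, or 0.12 for the 13 off chromosome 11. At this number of pairs, a difference that misses the threshold is not shown to be absent.

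Few genes were called at day 3 alone. They were 5, of which 3 were higher (0.0206%) and 2 lower (0.0138%); Nxf3 rose by 3.16 and Cyct by 1.97, and the others were entries with no gene symbol. At day 14, 10 genes rose and 16 fell, 0.0688% and 0.11% of those tested, among them Nxf3, Cyct, Trap1a, Rhox6 and Rhox9 (higher by 1.77, 2.01, 2.47, 1.68 and 1.49) and Zim1 (lower, at -1.28). Aoc3 was lower at days 7 and 14, at -1.63 and -1.65. On the values as deposited the calls numbered 2 at day 3 and 1 at day 14, and without the pairing 2 and 0. Of the genes just named, Nxf3 at day 3 and Aoc3 at day 7 were still called on the values as deposited, and the others were not (adjusted p = 0.062 to 0.097).

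The same genotypes were also compared on wild-type glia. There, 210 genes rose (1.41%) and 18 fell (0.121%) of 14881 tested in a fit of all 20 neuron libraries, with 1 mutant library a day. Without the mutant library of day 3, 7 or 14 the calls numbered 11, 26 or 27, and without the wild-type library of day 3, of day 7 replicate 2 or of day 14 replicate 1 they numbered 31, 96 or 78. The chromosome 11 median was 0.35, and those of the other chromosomes were -0.09 to -0.0014. The share of summed RPKM on chromosome 11 was 11.6 to 12.2% in mutant and 8.73 to 9.06% in wild-type neurons. Of the 162 chromosome 11 genes that rose on mutant glia, 156 (96.3%) were higher in all 3 pairs on wild-type glia, against 66.8% of all chromosome 11 genes tested. Of the 42 that rose elsewhere, 37 (88.1%) were higher in all 3 pairs, against 13.6% of all genes elsewhere. Of the 59 that fell, 43 (72.9%) were lower in all 3, against 19.4%. Equal-numbered libraries on the 2 kinds of glia also varied together in part, so the 2 comparisons may not be independent.

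**Figure D5:**
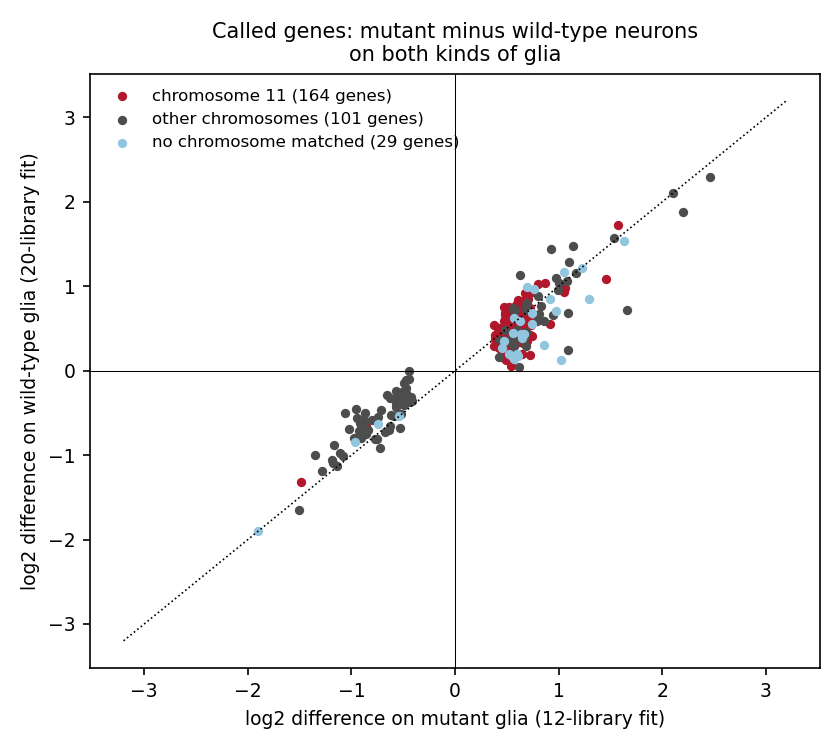
Log2 difference between mutant and wild-type neurons on mutant glia (horizontal) and on wild-type glia (vertical) for the 294 genes called on mutant glia, with chromosome 11 genes in red, other chromosomes in dark grey and genes with no matched chromosome in light blue. The dotted line marks equal differences; 164 of the genes lie on chromosome 11, 101 on other chromosomes and 29 had no match.

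Fewer of the genes called on mutant glia passed the threshold on wild-type glia. They were 67 of the 162 rises on chromosome 11, 18 of the 42 rises elsewhere and 5 of the 59 falls elsewhere. Of all genes tested on mutant glia, 179 of 1096 on chromosome 11 were called higher on wild-type glia. Of the 12095 elsewhere, 20 were called higher and 14 lower. Several leading genes were among those called on wild-type glia. Nxf3 had 1.52 to 8.59 RPKM in mutant neurons there, against 0 to 0.315 RPKM in wild-type neurons, a difference of 2.30 (SE 0.32, adjusted p = 0.0046). Cyct, Rec8, Meg3, Capn11, Wdfy1 and Lamp5 rose by 2.11, 1.48, 1.57, 1.15, 0.96 and 1.07 there, and Nefm fell by 1.65 (SE 0.31, adjusted p = 0.018). Foxa2, Shh and Nkx2-2 were lower in all 3 pairs, at -0.997, -0.97 and -1.06, without being called (adjusted p = 0.15, 0.11 and 0.09). Usp18, Oasl2 and Ifit1 were lower in 2 of 3 pairs only, at -0.50, -0.56 and -0.69 (adjusted p = 0.57, 0.49 and 0.46), and Rhox6 was higher in 2 of 3, at 0.72 (adjusted p = 0.61). The difference between the 2 kinds of glia was tested directly: no gene passed (limma, 416 at an unadjusted p under 0.05, 2.8%).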

How the data were processed

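RNA of neurons was sequenced from sandwich co-cultures, and the deposited table gives RPKM per gene, computed by the authors from reads aligned with Bowtie to mm9, per the submitters' processing notes. The counting tool and strand handling are not given in the sources used here. Whole reads could be recovered for 22781 of 22784 entries above 0 (99.99%, tolerance 0.02 reads). Values were rescaled by median-of-ratios factors, genes at 1 RPKM or more in at least 2 libraries were kept, and log2(RPKM + 1) was fitted with limma 3.58.1 in R 4.3.3 (variance trend, two-sided, Benjamini-Hochberg over all genes tested). The pseudocount understates changes of low genes. Day and replicate number formed 6 blocks; within groups, equal-numbered mutant and wild-type libraries deviated together (correlations 0.74, 0.48 and 0.56 at days 3, 7 and 14), and the pairing comes from the numbers in the labels and this check. The model of the wild-type glia comparison took all 20 neuron libraries. Wild-type neurons on wild-type glia had correlations of 0.71 and 0.57 with equal-numbered mutant and wild-type neurons on mutant glia at day 7. At day 14 these were 0.07 and 0.49. Chromosomes and names were matched by symbol or gene ID to a GRCm38 annotation, without using its coordinates; gene coordinates are those of the deposited table (mm9).

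Genes were named where they were called, moved alike in all 6 pairs and averaged 5 RPKM or more in the higher group (the 15 largest rises and 15 largest falls off chromosome 11, the 8 largest rises on it), or as members of the gene lists, and some of these are not reported here; others were named after their values were seen, among them Aoc3, the genes given for single days, and those of the closing observations. The members and lists were chosen with earlier results of these data known. The 12-library fit over all days was tested on simulated data with independent noise. The fits by day and those of 20 libraries were not. Alternatives were the pairing, scaling, pseudocount, filter, variance trend, libraries in the fit, and, added after seeing the data, limma-voom on the recovered reads and leaving out a day.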

Additional observations from a re-analysis of the deposited data

Results flagged for a closer look

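Among 50 results (the 48 called genes named by rule and the median and the share of chromosome 11), 3 had 1 of 6 pairs far from the others, where chance flags about 1 in 20. Trap1a differed by 0.73 on the log2 scale in the pair of day 3 replicate 1, against 2.16 to 2.74 in the other pairs; the 2 libraries of that pair also had the largest rescaling factors. Cdkn2b differed by -1.93 in the pair of day 7 replicate 2, against -0.87 to -0.44 in the others. Dhrs7b, on chromosome 11, differed by 1.31 in the pair of day 7 replicate 1, against 0.52 to 0.72 in the others. The part of these libraries in the differences was not tested.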

How the results depend on the processing

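No called gene named by rule changed direction under any alternative run; the number of calls moved widely. For all calls, chromosome 11 genes higher, other genes higher and other genes lower, the reported counts of 294, 162, 42 and 59 became 10, 3, 5 and 0 without the replicate block, 47, 19, 15 and 6 with no filter on low values, 968, 473, 134 and 281 in the fit of 20 libraries, 537, 246, 99 and 150 by voom on recovered reads, 22, 5, 9 and 3 without the pair of day 3 replicate 1, 3, 0, 2 and 0 without day 7, and 28, 2, 15 and 4 without day 14. Scaling from genes off chromosome 11 gave 455 calls, 286 of them higher on chromosome 11 and 68 higher elsewhere. Leaving out 1 library gave 15 to 62, 2 to 28, 6 to 13 and 1 to 12. The chromosome 11 median was 0.28 with no filter. With 4 or 5 pairs in place of 6, fewer residual degrees of freedom were left; otherwise the cause was not tested. On wild-type glia the 228 calls became 42 without the replicate block, 138 on the values as deposited, and 11 to 233 without 1 library. Calls at days 3, 7 and 14 (5, 57 and 26) became 2, 23 and 1 on the values as deposited and 2, 0 and 0 without the replicate block. The change of the effect between days and between kinds of glia gave 0 calls under each alternative run. Of the 48 called named genes, 43 lost the call without the replicate block, 38 with no filter, 46 without day 7, 33 without day 14, 30 to 40 without 1 library, 4 on the values as deposited, 2 without the variance trend, 1 under quantile normalization and 1 with a pseudocount of 0.1. No list's median over all days and all its tested members, where named in the text, changed sign under another scaling. The median of all genes, -0.02, became 0.01 with scaling from genes off chromosome 11. List medians by day were not tried under another scaling. Each day rests on 2 pairs, and most adjusted p lay near the threshold, which limits single calls.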

Other observations

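At day 14, several genes, named after their values were seen, were lower in mutant neurons in the fit by day (limma). Egln3, a prolyl hydroxylase of the oxygen-sensing pathway, differed by -1.45 (SE 0.21, adjusted p = 0.047), the oxidoreductase gene Ero1a by -1.38 (SE 0.16, adjusted p = 0.039) and the neuronal glucose transporter gene Slc2a3 by -1.35 (SE 0.18, adjusted p = 0.042). At day 3 their differences were -0.34, 0.22 and 0.04, and the change of effect between days 14 and 3 passed for none of them (adjusted p = 0.56, 0.40 and 0.40). Hoxa3 was the 1 Hox gene of 24 called at day 14, at -1.20 (SE 0.18, adjusted p = 0.049). Higher at day 14 were Cemip, a hyaluronan-degrading protein, at 1.64 (SE 0.20, adjusted p = 0.039), and Enpp2, the enzyme that makes lysophosphatidic acid, at 1.16 (SE 0.17, adjusted p = 0.049).

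At day 7, 4 genes of matrix proteins, likewise named after their values were seen, were lower in mutant neurons. Fn1, fibronectin, differed by -1.51 (SE 0.19, adjusted p = 0.021), Tnc, tenascin C, by -1.73 (SE 0.27, adjusted p = 0.046), Thbs1, thrombospondin, by -1.67 (SE 0.23, adjusted p = 0.030) and Ccn2, a matrix growth factor, by -1.90 (SE 0.31, adjusted p = 0.049). At day 14 these 4 differed by -0.53, 0.73, -0.13 and 0.34, and none was called there. Higher at day 7 were Hand1, a transcription factor of trophoblast and heart encoded on chromosome 11, at 3.18 (SE 0.35, adjusted p = 0.011), and Dnmt3l, a cofactor of DNA methylation in germ cells, at 2.59 (SE 0.27, adjusted p = 0.0087). Without the pairing no gene was called at day 7 or 14. On the values as deposited, Fn1, Hand1 and Dnmt3l were still called at day 7, while Tnc, Thbs1 and Ccn2 (adjusted p = 0.085, 0.068 and 0.095) and all 6 genes given for day 14 (0.062 to 0.097) were not.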
